A study of Mus musculus with 61 samples.

Results

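The p53 family comprises 3 mouse genes, Trp53, Trp63 and Trp73, which encode the transcription factors p53, p63 and p73. They were taken by symbol from the deposited gene-by-cell table, where they are 3 of 23927 gene rows, and followed in all 61 single cells. The cells came from ovaries of wild-type CD-1 mice at postnatal day 5, taken 6 h after intraperitoneal injection of solvent or of doxorubicin, a drug that breaks DNA by trapping topoisomerase II. The 4 groups were 16 control oocytes, 16 doxorubicin oocytes, 16 control granulosa cells and 13 doxorubicin granulosa cells, and all carry the same wild-type genotype and the same batch label. The dose is written with a unit that is not a unit of dose, so it is not repeated here. Transcripts of each cell were copied and amplified with a SMART-seq kit and sequenced. The raw reads of doxorubicin oocyte 4 are stated to be lost, but its column was kept.

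The 3 proteins bind the same kind of DNA site, built from paired half-sites, and raise overlapping sets of genes for cell cycle arrest and death. p53 is held down in most cells by the ubiquitin ligase MDM2 and is controlled mainly through the stability of its protein. Oocytes of primordial follicles are known for a full-length form of p63, kept as an inactive dimer until kinases such as CHK2 and casein kinase 1 phosphorylate it after DNA damage. Trp63 and Trp73 each also have an internal start site that gives shorter proteins without the N-terminal activation domain, and the short p73 form can oppose p53.

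The mouse genes lie, in GRCm38 with GENCODE M21 models, at chr11:69580359-69591873 on the plus strand (Trp53), chr16:25683763-25892102 on the plus strand (Trp63) and chr4:154056253-154140208 on the minus strand (Trp73). GENCODE lists 6 transcripts of Trp53, 8 of Trp63 and 7 of Trp73. The transcripts of Trp63 start either near base 25683763 or at base 25801916 inside the gene, and those of Trp73 start mainly at base 154140208 or near base 154097173 inside the gene. The table has 1 value per gene and cell, so the full-length and short forms cannot be told apart. The row of the pseudogene Trp53-ps had at most 41 counts in any group. An antisense gene, Trp73os, covers 4875 bases of Trp73, including its internal start, and has no row of its own. Whether the counting used strand is not given in the sources used here, so reads of Trp73os cannot be told apart from those of Trp73.

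Promoter letters are shown for the internal start of Trp73, because Trp73 had the largest drug difference of the family, and for Trp53, as the other family member with a window to compare. The letters are from RefSeq, GRCm38.p6, 5′ to 3′ on the strand of the gene, ending at the base before the start. Capitals mark each match to the p53-family half-site with up to 1 mismatch outside its core. The Trp73 window, chr4:154097174-154097423 on the minus strand, lies in an intron of the long Trp73 transcript and in an exon of Trp73os. The Trp53 stretch, chr11:69580256-69580358 on the plus strand, is the part nearest the start that no annotated UTR of the neighbouring gene Wrap53 covers.
Trp73 internal start: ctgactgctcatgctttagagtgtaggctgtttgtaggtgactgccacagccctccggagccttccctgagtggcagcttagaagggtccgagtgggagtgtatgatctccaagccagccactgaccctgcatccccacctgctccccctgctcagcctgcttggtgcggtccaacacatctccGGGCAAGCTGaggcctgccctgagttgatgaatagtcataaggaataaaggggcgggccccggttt
Trp53: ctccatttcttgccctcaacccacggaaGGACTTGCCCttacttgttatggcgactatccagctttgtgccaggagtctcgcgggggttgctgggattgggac
The Trp73 window at the internal start held 1 match, with 1 mismatch, whose first letter lay 66 bases before the start. The window of the upstream RefSeq start of Trp73, chr4:154139876-154140125, lies in an annotated UTR, is not printed, and held no match. This window lies downstream of the GENCODE start at base 154140208, so the letters before that start were not searched. Which Trp73 start these cells used cannot be told from the table. The Trp53 window of 250 bases held 1 match with no mismatch, 75 bases before the start. Of 32851 windows of 250 bases in the table, 7.13% held an exact half-site and 34.4% held one with up to 1 mismatch. The half-site reads the same on both strands, so 1 search covers both. A match describes the letters only, and nothing in these data shows binding there.

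Levels are given as counts per 1000000 gene counts of a library (CPM), and group levels as the summed counts of the cells over their summed totals. Library totals ran from 6834594 to 31262609 counts, and the group medians from 10826423 to 11478173. No animal or culture is named, so the cells of a group count as 1 sample and no test between groups was made. The 95% intervals of levels and ratios cover counting error only. Intervals for shares of cells treat the cells as independent draws and do not cover differences between animals. Reads were amplified without molecular tags, so they are not independent molecules. A ratio was called higher or lower when its absolute log2 value reached 1 and 1 of its groups had at least 5 CPM. "Rose" and "fell" are kept for called ratios.

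The labels were checked against marker lists. Summed CPM of 19 oocyte markers ran from 23215 to 55139 in control oocytes and from 15672 to 62462 in doxorubicin oocytes, and exceeded the granulosa marker sum in all 32. In libraries labelled granulosa the oocyte sum was 336 to 15132 CPM in controls and 337 to 41062 CPM after doxorubicin, and it exceeded the sum of 19 granulosa markers in 6 of 16 and 8 of 13. Padi6, the leading oocyte marker there, had at least 5 reads in all 29 granulosa libraries. After the drug Gdf9, Ooep and Zp3 were at 1817, 2394 and 1380 CPM there, against 564, 2640 and 2652 CPM in doxorubicin oocytes. In control granulosa libraries these 3 were at 68.1, 748 and 178 CPM. Some oocyte markers were low in granulosa libraries both before and after the drug. Ddx4 had 1.93 and 0.66 CPM against 269 and 271 CPM in oocytes, and Lhx8 had 1.82 and 0.80 against 225 and 219 CPM. Oog1 was at 0 in both granulosa groups, but it was also only at 0.79 and 1.21 CPM in oocytes. Stroma markers reached 13316 CPM in control granulosa library 13, and blood markers 34796 CPM in doxorubicin granulosa library 15. These libraries are called granulosa by their label below.

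Trp63 separated the cell types. In control oocytes it was at 43.8 CPM in the lowest cell, 99.9 at the median and 172 in the highest. In doxorubicin oocytes the lowest, median and highest were 40.9, 82.6 and 147 CPM. In control granulosa libraries the lowest and the median were 0 and the highest was 114 CPM. In doxorubicin granulosa libraries they were 0, 0.11 and 33.6 CPM. All 32 oocytes had at least 5 Trp63 reads, while 22 of 29 granulosa libraries had fewer than 5 and 16 had none. Of the 6701 genes with at least 5 reads in every oocyte, 469 (7%) were as sparse in granulosa libraries.

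The summed Trp63 level was 97.3 CPM (95.9 to 98.7) in control oocytes and 13.2 CPM (12.7 to 13.7) in control granulosa libraries, a log2 ratio of 2.88 (2.82 to 2.95) or 7.38-fold. Trp63 was thus among the 3590 of 12373 genes called higher in oocytes before the drug (29%). A single library set much of the granulosa level, since control granulosa library 4 gave 55.5% of its Trp63 counts and the ratio was 3.96 without it. After doxorubicin the oocyte level was 91.3 CPM (89.9 to 92.7) and the granulosa level 4.90 CPM (4.54 to 5.28), a log2 ratio of 4.22 (4.11 to 4.33) or 18.6-fold, among 27.6% of genes called higher in oocytes. Doxorubicin granulosa library 8 gave 63.3% of the granulosa counts, and the ratio was 5.53 without it. After the drug every oocyte was above every granulosa library for Trp63, which held for 192 of 12428 genes (1.54%). Before the drug 3 of 16 control oocytes were above the highest granulosa library, and 15 of 16 granulosa libraries were below the lowest oocyte.

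**Figure D1:**
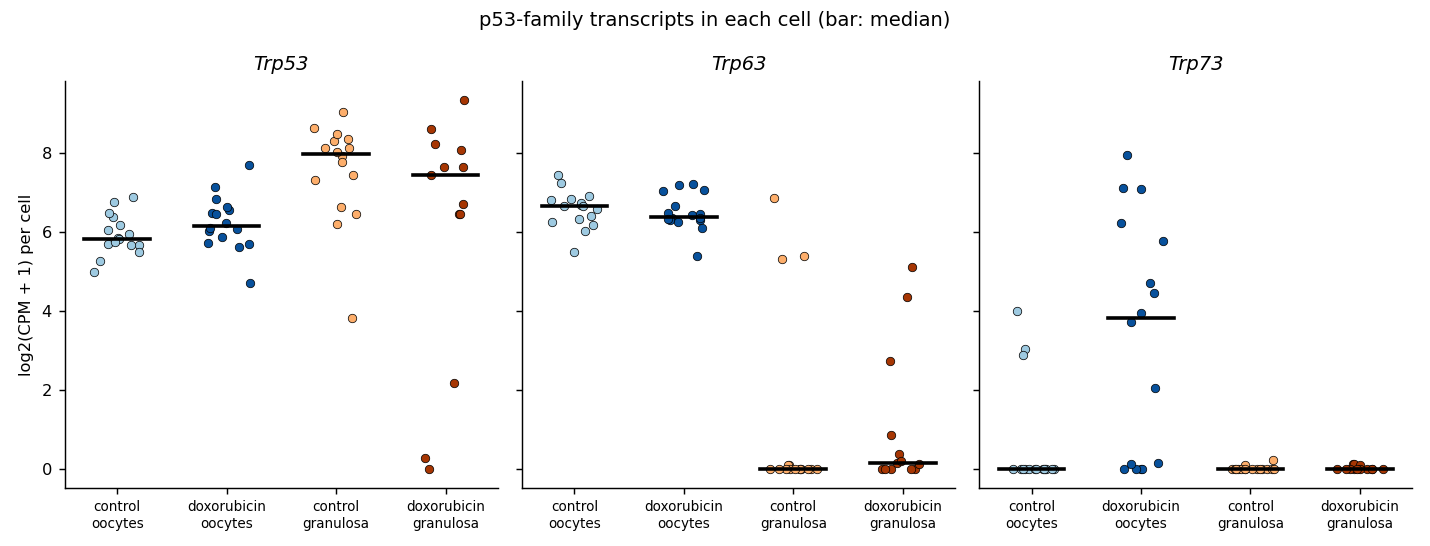
Level of Trp53, Trp63 and Trp73 in each of the 61 cells as log2(CPM + 1), 1 point per cell, with a bar at the median of each of the 4 groups. Trp63 fills all 32 oocytes and few granulosa libraries, Trp53 is highest in granulosa libraries, and Trp73 is spread from 0 to 242 CPM among doxorubicin oocytes.

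Trp63 in granulosa libraries did not follow the oocyte markers. The 3 control libraries with at least 5 reads, numbers 2, 7 and 4, held 38.7, 40.7 and 114 CPM beside oocyte marker sums of 561, 1558 and 2035 CPM. Per 1000 CPM of oocyte markers this was 69.0, 26.1 and 56.1 CPM of Trp63, against a highest value of 6.92 in any oocyte. Control granulosa library 2 had 277 CPM of granulosa markers and 8342 CPM of stroma markers. The doxorubicin granulosa libraries with the highest oocyte sums went the other way. Library 1, at 41062 CPM of oocyte markers, had 5.60 CPM of Trp63, and library 6, at 30646 CPM, had 0.83 CPM. Pearson's r of Trp63 with the oocyte markers, both on the log2 scale, was -0.15 over the 16 control and -0.03 over the 13 doxorubicin granulosa libraries, as a description with most Trp63 values at or near 0.

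**Figure D2:**
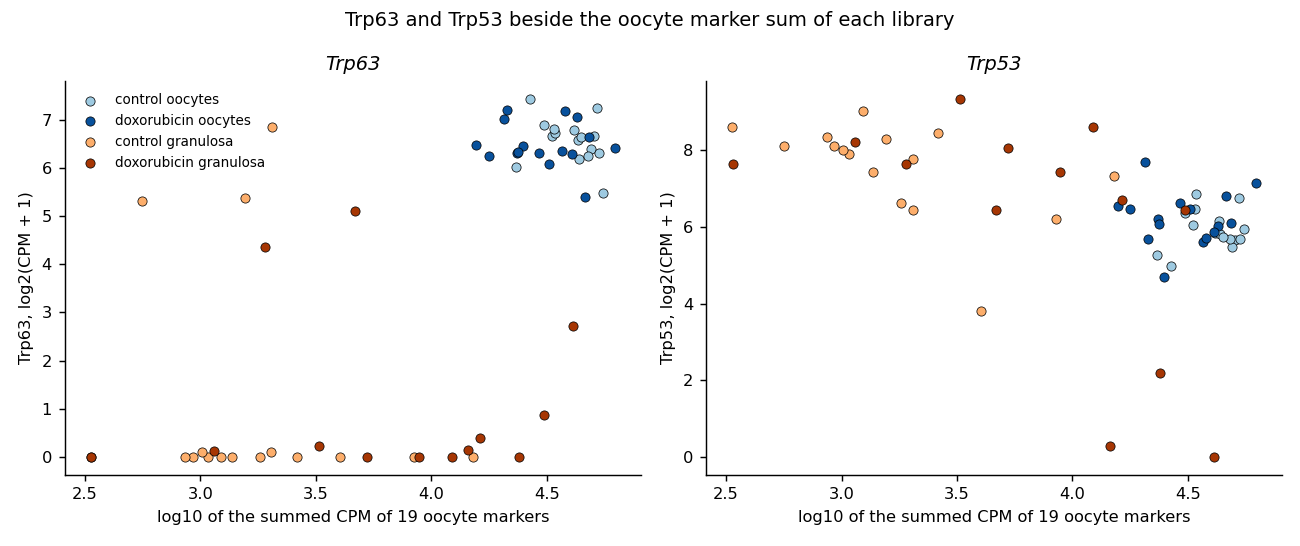
Trp63 (left) and Trp53 (right) as log2(CPM + 1) against the log10 summed CPM of 19 oocyte markers, 1 point per cell, coloured by group. Doxorubicin granulosa libraries, with oocyte sums up to 41062 CPM, stay below every oocyte in Trp63. Control granulosa library 4, at 114 CPM of Trp63 beside an oocyte sum of 2035 CPM, lies among the oocytes. The granulosa libraries lowest in Trp53 after the drug have high oocyte sums, but library 6, at an oocyte sum of 30646 CPM, has 86.7 CPM of Trp53.

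With doxorubicin, Trp63 in oocytes differed little. The log2 ratio of summed CPM was -0.09 (-0.12 to -0.06), the ranges of the cells overlapped, and 4 of 16 doxorubicin oocytes were above the control median. Leaving out each cell gave -0.15 to -0.04. In granulosa libraries the Trp63 log2 ratio was -1.43 (-1.55 to -1.31), past the limit for lower, as were 20% of 12194 genes. The median cell went the other way, from 0 to 0.11 CPM, and without control granulosa library 4 the ratio was -0.36, which is not called. Without doxorubicin granulosa library 8 it was -2.74. With all libraries thinned to 1000000 counts, Trp63 had at least 1 read in 4 of 16 control (exact binomial interval 7.27% to 52.4%) and 3 of 13 doxorubicin granulosa libraries (5.04% to 53.8%). Unthinned the counts were 5 of 16 and 8 of 13.

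Trp53, the gene of p53 itself, was present in both cell types and higher in granulosa libraries. Control oocytes held 30.5 CPM in the lowest cell, 55.5 at the median and 116 in the highest. Doxorubicin oocytes held 24.9, 70.3 and 205 CPM. Control granulosa libraries held 13.02, 248 and 516 CPM, with 12 of 16 above the highest control oocyte. Doxorubicin granulosa libraries held 0, 173 and 647 CPM, with 4 of 13 above the highest doxorubicin oocyte and 3 of 13 below the lowest. The ranges of neighbouring groups overlapped throughout.

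The summed level of Trp53 before the drug was 62.0 CPM (60.9 to 63.1) in oocytes and 236 CPM (234 to 239) in granulosa libraries. The log2 ratio was -1.93 (-1.96 to -1.90), so that granulosa libraries held 3.81 times the oocyte level, among the 31.3% of genes called lower in oocytes. After the drug the levels were 81.4 CPM (80.1 to 82.7) and 195 CPM (192 to 197), with a log2 ratio of -1.26 (-1.29 to -1.23), where 28.2% of genes were called lower. Without doxorubicin granulosa library 14, the highest at 647 CPM, this ratio was -0.90 and no longer called.

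Neither drug ratio of Trp53 was called. In oocytes the log2 ratio was 0.39 (0.36 to 0.43), with 12 of 16 doxorubicin oocytes above the control median and 2 above the highest control. It was 0.27 without doxorubicin oocyte 9, the highest cell, which also carried 3145 CPM of granulosa markers and 1882 CPM of stroma markers. Over the 22 oocytes with under 200 CPM of granulosa markers, 10 control and 12 doxorubicin cells, it was 0.17. This selection was added after the data were seen, and the part of other cells' RNA in the difference was not tested further.

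In granulosa libraries the Trp53 log2 ratio was -0.28 (-0.30 to -0.26). It stayed negative when each library was left out, from -0.64 without doxorubicin library 14 to -0.16 without doxorubicin library 4. Among doxorubicin libraries, numbers 1, 10 and 4 had 0, 2 and 43 Trp53 reads, and their oocyte marker sums were 41062, 14462 and 24038 CPM. Libraries 6 and 12, with oocyte marker sums of 30646 and 16303 CPM, had 939 and 990 Trp53 reads. Over the 15 libraries whose granulosa markers exceeded their oocyte markers, 10 control and 5 doxorubicin, the ratio was 0.11. Over the 17 libraries with at least 5000 CPM of granulosa markers, 10 and 7, it was 0.04. Pearson's r between Trp53 and the oocyte markers was -0.54 over control and -0.58 over doxorubicin granulosa libraries, where both values also share the library total.

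Trp73 had few reads outside the doxorubicin oocytes. In control oocytes 3 of 16 cells had any read, numbers 4, 6 and 9, at 7.16, 14.9 and 6.40 CPM. In doxorubicin oocytes the lowest cell was at 0, the median at 13.2 and the highest at 242 CPM. Doxorubicin oocytes 5, 6 and 4 held 242, 137 and 134 CPM, and oocytes 3 and 13 held 73.4 and 53.2 CPM. In the same group oocytes 2, 11, 12 and 14 had no read, and oocytes 15 and 16 had 1 read each. At least 5 reads were present in 10 of 16 doxorubicin oocytes. The doxorubicin group thus ran from cells inside the control range to cells far above it.

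The summed Trp73 level rose from 1.56 CPM (1.39 to 1.75) to 49.0 CPM (47.98 to 50.04) in oocytes. The log2 ratio was 4.97 (4.81 to 5.14), or 31.3-fold, and Trp73 was 1 of 701 genes of 11119 called higher (6.3%), against 2.45% called lower. Doxorubicin oocyte 5 gave 37.0% of the counts, and the ratio was 4.42 without it. Without control oocyte 6 it was 5.97, and without doxorubicin oocyte 4, whose raw reads were lost, it was 4.76. Doxorubicin oocytes exceeded the highest control in 7 of 16 cells, and 347 of 11119 genes (3.12%) had at least as many cells above. Thinned to 1000000 counts, Trp73 had a read in 3 of 16 control oocytes (18.8%, 4.05 to 45.6) and 11 of 16 doxorubicin oocytes (68.8%, 41.3 to 89.0), with intervals for these cells only. Unthinned the numbers were 3 and 12 of 16.

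Granulosa libraries had 3 Trp73 counts in total before the drug and 3 after it. Both are at the floor of 3 counts, so no drug ratio is given for these cells. Thinned to 1000000 counts, 0 of 16 and 0 of 13 libraries had a read, and unthinned 2 of 16 and 3 of 13 had 1 or 2 reads each. Before the drug the log2 ratio of oocytes over granulosa libraries was 6.55 (4.99 to 8.84), which is not called because neither group reached 5 CPM. It rests on 3 oocytes, and without control oocyte 6 it was 5.55. After the drug oocytes were higher by 11.19 (9.64 to 13.47), with the wide interval set by the 3 granulosa counts.

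To compare the members with each other, each level was divided by the length of the longest annotated transcript, 3275 bases for Trp53, 5366 for Trp63 and 5042 for Trp73. On this scale control oocytes held 18.9 CPM per kilobase of Trp53, 18.1 of Trp63 and 0.31 of Trp73, which are 50.7%, 48.5% and 0.83% of the family. Doxorubicin oocytes held 24.9, 17.0 and 9.72 CPM per kilobase, or 48.2%, 33.0% and 18.8%. Control granulosa libraries were 96.7% Trp53 and 3.29% Trp63, and doxorubicin granulosa libraries 98.5% and 1.51%. The median cell of these groups was at 0 and 0.019% for Trp63, whose share was 1.53% without control library 4 and 0.58% without doxorubicin library 8. The median oocyte was at 0 and 4.92% for Trp73, whose share was 0.43% without control oocyte 6 and 13.4% without doxorubicin oocyte 5.

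Cell by cell, Trp53 was the highest member per kilobase in 10 of 16 control oocytes and Trp63 in 6. In doxorubicin oocytes Trp53 led in 11, Trp63 in 4 and Trp73 in 1, oocyte 5. Trp53 led in 16 of 16 control granulosa libraries and 12 of 13 after the drug, the exception being library 1, where Trp63 led with no Trp53 read. The order of Trp53 and Trp63 in oocytes depended on the length used. The longest Trp53 transcript is a noncoding one, and with the longest protein-coding transcripts Trp53 took 64.3% and Trp63 35.1% in control oocytes. In doxorubicin oocytes Trp53, Trp63 and Trp73 then took 62.0%, 24.2% and 13.8%. With these lengths Trp53 led in 15 of 16 control and 13 of 16 doxorubicin oocytes. With no length removed, Trp63 took 60.5% of control and 41.2% of doxorubicin oocyte reads of the family, and Trp53 38.5% and 36.7%. In granulosa libraries Trp53 took 94.7% before and 97.5% after the drug with no length removed.

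**Figure D3:**
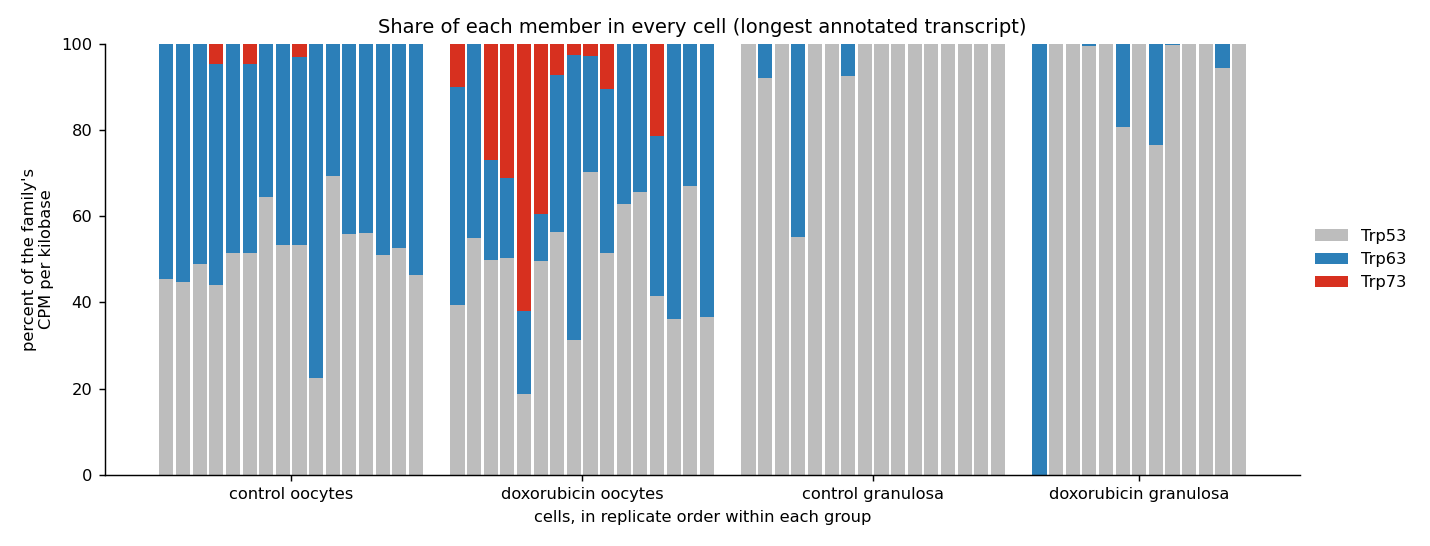
Percent of the family's CPM per kilobase held by Trp53, Trp63 and Trp73 in every cell, 1 stacked bar per cell in replicate order within the 4 groups. Oocytes divide between Trp53 and Trp63, Trp73 appears in part of the doxorubicin oocytes, and most granulosa bars are nearly all Trp53. Trp63 holds 100% of doxorubicin granulosa library 1 and 44.7% of control granulosa library 4. It holds 19.2% of doxorubicin library 8 and 23.4% of library 10, which had 2 Trp53 reads and 1 Trp63 read.

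Genes known to restrain the family were described from a list of 18, which includes MDM2 and other ubiquitin ligases. In oocytes 1 of 17 with at least 5 CPM was higher and 0 lower, near the 6.3% and 2.45% of all genes, with a median log2 ratio of -0.05 against 0.01 over all 11119 genes. The higher gene was Mdm2, which is also a target of the family. Mdm2 rose from a summed 159 CPM to 673 CPM, by 2.09 on the log2 scale (2.07 to 2.10), with 9 of 16 cells above the highest control. At least 7 such cells were found for 347 of 11119 genes (3.12%). The partner of Mdm2, Mdm4, which blocks the p53 activation domain, had 224 and 225 CPM and a ratio of 0.01. Itch, a ligase for p63 and p73, had a ratio of -0.18. Ppp1r13l, which encodes the inhibitor iASPP, was under the 5 CPM limit at 4.06 and 3.09 CPM.

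In granulosa libraries 4 of 17 brake genes were higher and 2 lower, with a median of -0.13 against -0.03 over 12194 genes, of which 20.6% were called higher and 20% lower. The 4 higher brake genes thus stand near the share of all genes. Mdm2 rose from 97.0 to 268 CPM, a ratio of 1.47 (1.44 to 1.49). The ligase genes Ube4b and Cop1 rose by 2.81 and 1.27 on the log2 scale, and Ube4b was at 3.92 without control granulosa library 10. Trim24, a ligase for p53, fell from 25.1 to 3.34 CPM, a ratio of -2.91 that was -4.03 without doxorubicin library 7. Daxx, a chaperone that binds p53 and MDM2, fell from 61.2 to 20.1 CPM. Without doxorubicin granulosa library 1 the Cop1 ratio was 0.88 and no longer called. Mdm4 had a ratio of 0.09, with -0.85 to 1.21 over leaving out each library.

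Of 15 kinases that act on the family, 0 of 14 were higher and 0 lower in oocytes, beside 6.3% and 2.45% of all genes, and the median ratio was 0.05. Chek2, which encodes the kinase that primes p63 in oocytes, had 46.4 and 58.6 CPM and a ratio of 0.34 (0.30 to 0.38). The casein kinase 1 genes Csnk1d and Csnk1e, which complete that step, had ratios of -0.16 and 0.33. For Csnk1e 9 of 16 doxorubicin oocytes were above the highest control, and 3.12% of all genes had at least 7 such cells. Abl1, a kinase that acts on p73, had a ratio of 0.29 that turned to -0.40 when doxorubicin oocyte 4 was left out. In granulosa libraries 2 of 15 kinase genes were higher and 4 lower, near the 20.6% and 20% of all genes, with a median of -0.56. Mapk14, the gene of p38 alpha, rose by 1.72 on the log2 scale. Atr, the kinase of stalled replication forks, fell from 62.1 to 17.1 CPM, a ratio of -1.86 that was -3.58 without doxorubicin library 8. Dyrk2, a p53 kinase gene, fell from 13.4 to 4.10 CPM, a ratio of -1.71 that was -2.85 without doxorubicin library 10. Mapk10, the JNK3 gene, fell from 17.4 to 0.035 CPM, with at least 5 reads in 8 of 16 control and 0 of 13 doxorubicin libraries.

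Between the cell types before the drug, 7 of 17 brake genes were higher in oocytes and 1 lower, 7 of 15 kinase genes were higher and 2 lower, and 4 of 17 cofactors were higher and 5 lower, beside 29% and 31.3% of all genes. Csnk1e was higher in oocytes, at 474.5 against 114 CPM, with 12 of 16 control oocytes above the highest granulosa library. How many genes had that many control oocytes above was not counted. After the drug all 16 oocytes were above every granulosa library for Csnk1e, which held for 192 of 12428 genes (1.54%). Csnk1d and Mdm4 were higher in control oocytes by log2 ratios of 1.22 and 1.34, and Abl1 was lower by a ratio of -1.96. Mdm4 was at 2.46 without control granulosa library 8, and Abl1 at -1.19 without library 3. Chek2 had 46.4 CPM in control oocytes and 30.2 CPM in control granulosa libraries, a ratio of 0.62 that was 1.39, and called, without control granulosa library 9. At least 5 Chek2 reads were present in 16 of 16 oocytes and 7 of 16 granulosa libraries.

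Among 18 cofactors, 1 of 17 was higher and 0 lower in oocytes, near the 6.3% and 2.45% of all genes, with a median of 0.03. It was Trp53bp1, which encodes the double-strand break protein 53BP1. Its level rose from 9.12 to 42.2 CPM, a ratio of 2.21 (2.14 to 2.29), with 6 of 16 cells above the highest control. The share of genes with at least 6 such cells was not counted, and 3.12% had at least 7. Trp53bp1 had at least 5 reads in 12 of 16 doxorubicin and 15 of 16 control oocytes, so the higher sum came with more cells under that limit. In granulosa libraries 1 of 17 cofactors was higher and 3 lower, beside 20.6% and 20% of all genes, with a median of -0.17. Ep300, a histone acetyltransferase, rose by 1.74 on the log2 scale, but its ratio was 0.76 without doxorubicin granulosa library 4. Usp10, which removes ubiquitin from p53, fell by 1.40, Kat5 fell by 1.12 and Yap1, a partner of p73, fell by 1.12. The Kat5 ratio was -0.89 without control granulosa library 5 and -2.75 without doxorubicin library 4. The Yap1 ratio was -0.72 without control granulosa library 13 and -1.87 without doxorubicin library 12.

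Genes known as targets of the p53 family were taken as a list of 34, called shared targets. The list was assembled with results of these data known and overlaps the brakes in Mdm2. Whether each member raises every gene of the list was not examined here. In oocytes 17 of 30 were higher and 0 lower, with a median of 1.35, beside 6.3% of all genes called higher. Phlda3, a repressor of AKT signalling, rose from 1.71 to 38.1 CPM, and Psrc1 from 0.68 to 11.1 CPM, a ratio of 4.02 that was 4.74 without control oocyte 4. Eda2r, a gene of the TNF receptor family, rose from 0.31 to 31.6 CPM, a ratio of 6.69 that was 10.52 without control oocyte 9, the 1 control cell with at least 5 reads. In granulosa libraries 23 of 33 were higher and 0 lower, with a median of 1.81, beside 20.6% of all genes. Pmaip1, which encodes the BH3 protein NOXA, rose from 0.083 to 48.6 CPM, with at least 5 reads in 7 of 13 against 1 of 16 libraries. Its ratio of 9.19 was 7.16 without doxorubicin library 6 and 11.40 without control library 7. Rprm and Pidd1 had no control reads, and at least 5 reads in 5 and 4 of 13 doxorubicin libraries. They reached 13.5 and 5.56 CPM, at least 9.66 and 8.38 higher on the log2 scale against a group floor of 3 control counts. Leaving out 1 doxorubicin library took these bounds to 9.06 for Rprm, without library 8, and 7.22 for Pidd1, without library 13.

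**Figure D4:**
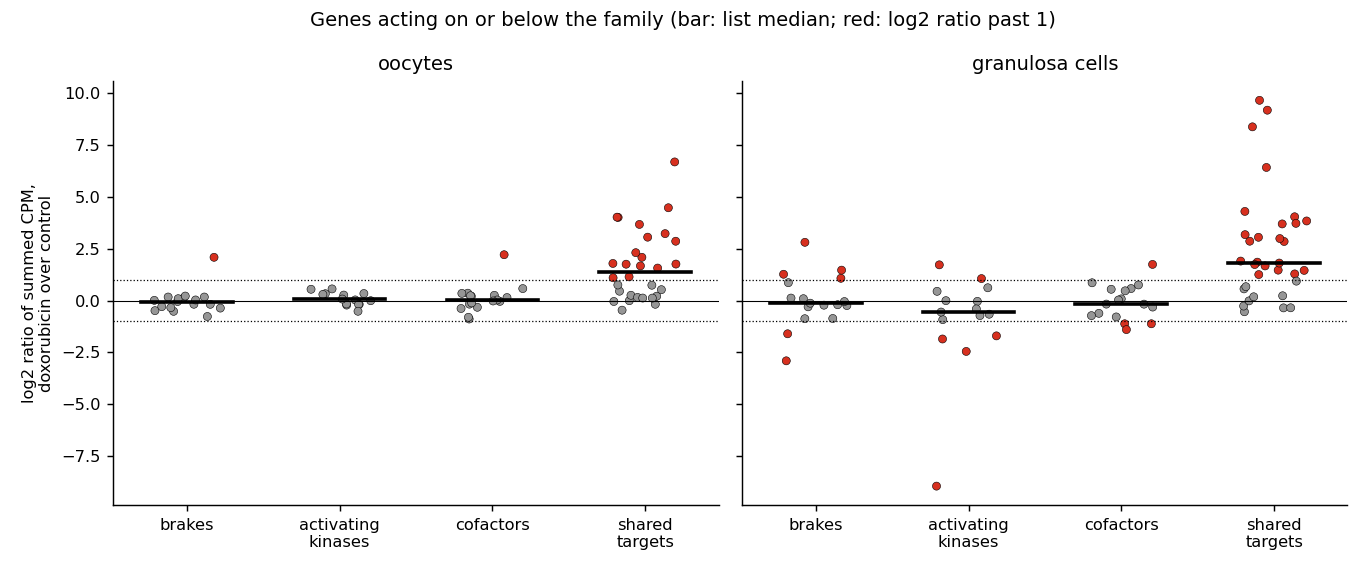
Log2 ratio of summed CPM, doxorubicin over control, for every gene that reached 5 CPM in either group from the brake, kinase, cofactor and shared target lists, in oocytes (left) and granulosa libraries (right); bars are list medians and dotted lines the limits of 1. In oocytes the calls lie almost wholly among the shared targets, with Mdm2 and Trp53bp1 the 2 calls of the other lists.

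Within the doxorubicin oocytes each member was set beside the summed shared targets. Pearson's r over 16 cells, on the log2 scale, was 0.61 for Trp73 (Spearman's rho 0.52), 0.36 for Trp53 and -0.19 for Trp63. Leaving out each cell gave 0.54 to 0.78 for Trp73, 0.25 to 0.44 for Trp53 and -0.34 to -0.02 for Trp63. Over the 12 cells with under 200 CPM of granulosa markers, without oocytes 9, 10, 11 and 12, the values were 0.86, 0.43 and -0.23. Whether the members differ in this was not tested. Trp73 was the only member called higher with the drug in oocytes, as were 17 of 30 shared targets. No gene outside the family was set beside the target sum, so a relation particular to Trp73 is not shown. The target sum of the cells ran from 849 to 5247 CPM, its highest being oocyte 4, where Trp73 was at 134 CPM. Oocytes 11 and 12 had 4230 and 1712 CPM of targets and no Trp73 read, with 2701 and 2148 CPM of granulosa markers. Oocyte 6, second in Trp73 at 137 CPM, had 1627 CPM of targets. Oocytes 2, 14, 15 and 16, with 0 or 1 Trp73 read, had target sums of 1180, 1201, 1015 and 849 CPM, inside or below the control range of 895 to 1343 CPM. Over the 16 control oocytes r for Trp73 was -0.0035. Trp73 also varied with the oocyte marker sum (0.57), the number of genes with a count (0.54) and the total count (0.41), and their part in the relation was not tested.

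**Figure D5:**
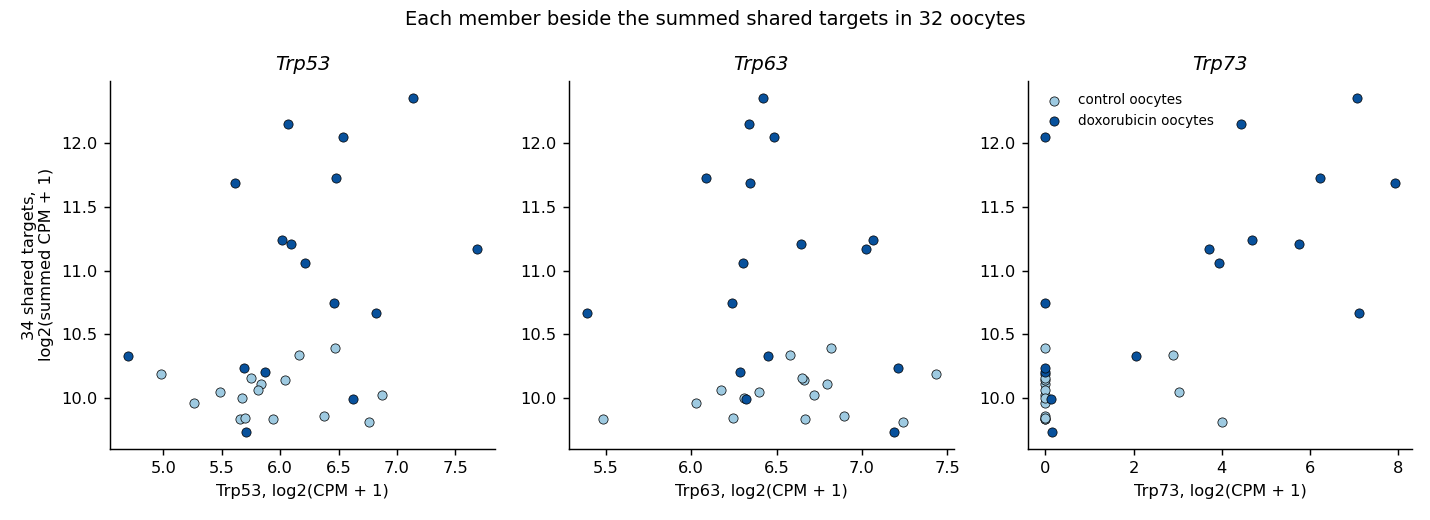
Summed CPM of 34 shared targets as log2(CPM + 1) against Trp53, Trp63 and Trp73 as log2(CPM + 1) in 32 oocytes, control cells light and doxorubicin cells dark. Among doxorubicin oocytes r is 0.61 along Trp73, with oocytes 11 and 12 above the control target range at no Trp73 read and oocyte 6 at 1627 CPM of targets beside 137 CPM of Trp73, and -0.19 along Trp63.

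The genes most like each member were ranked by Pearson's r of log2(CPM + 1) among 13267 genes. Over all 61 cells Trp63 was most like Plcg2 (0.91), which encodes phospholipase C gamma 2, Chtf18 (0.91), a DNA clamp loader gene, Trappc2 (0.90), Lrrc31 (0.89) and Dnah10 (0.88). All 5 were far higher in oocytes, for example Plcg2 at 349 and 238 CPM in control and doxorubicin oocytes against 14.6 and 21.8 CPM in granulosa libraries, so the cell type contrast carries these values. Over the 32 oocytes alone the highest r for Trp63 was 0.62, at a row whose symbol had been turned into a date and is not named, followed by Cyb5rl (0.58), Rcan3 (0.58), Phc1 (0.56) and Kctd6 (0.55). Trp53 was most like Eif2s1 (0.71), 1700123O20Rik (0.69), Eif1a (0.66), Fyttd1 (0.66) and Ewsr1 (0.65) over all cells, and Cyb5a (0.66), Pisd (0.65), Nup43 (0.64), Eif5a (0.64) and Prdx2 (0.63) over oocytes. Trp73 had at least 5 reads in 21.3% of cells, under the limit of 25%, and was not ranked.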

How the data were processed

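Single oocytes and granulosa cells were sequenced with paired ends after SMART-seq amplification, per the labels' protocols. The deposited table holds an estimated count for every gene in every cell, not normalised. Of its values above 0, 32.5% were not whole, and they were rounded here. The submitters' processing notes name Partek, Bowtie2, HISAT2, DESeq2 and mm10, with no role or version. The counting settings are not given in the sources used here.

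Groups came from the labels, and the columns from their names. No label names an animal, so each group was 1 sample and no test was made. Exact Poisson, conditional binomial and Clopper-Pearson intervals were computed with Python 3.11.15 and scipy 1.17.1, and a group under 3 counts was set to 3 counts in a ratio. Gene models were GENCODE M21. Alternatives used TMM factors (edgeR 4.0.16) and DESeq2 1.42.0 size factors. Scripts were tested on simulated data.

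The 3 members and all lists were chosen with earlier results of these data known. From each list and cell type, up to 3 genes higher and 3 lower were named, ranked by the weakest log2 ratio found when cells were left out in turn. Mdm2, Mdm4, Ppp1r13l, Chek2, Csnk1d, Csnk1e, Itch and Abl1 were named regardless of value, and so were the 5 genes most like a member. Cyp11a1 and Adgre1 of the marker lists had no row under these symbols.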

Additional observations from a re-analysis of the deposited data

Results flagged for a closer look

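The summed Trp53 level had ratios of opposite sign in the cell types. The log2 ratio of doxorubicin over control was 0.39 in oocytes and -0.28 in granulosa libraries, and neither sign turned when any single cell was left out. The difference between the cell types was not tested, since each group counts as 1 sample. The granulosa sign turned, to 0.11, among libraries whose granulosa markers exceeded their oocyte markers.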

How the results depend on the processing

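No paired analysis was possible because no test was made: each group counts as 1 sample, and no label says that cells of the same number belong together. Of 60 alternative values for the 11 member ratios, 34 lay inside the counting interval, 23 outside it with the same sign or at 0, and 3 had the other sign; both TMM and DESeq2 factors kept every sign. All values here are log2 ratios. The granulosa drug ratio of Trp53 became 0.11 with only cells whose own markers exceeded those of the other type and 0.045, an alternative added after the data were seen, where granulosa markers reached 5000 CPM. That of Trp63 became 0.15 as a difference of medians, -0.61 with own markers above and -1.05 at 5000 CPM. As differences of medians the oocyte drug ratios were 0.33 (Trp53), -0.27 (Trp63) and 3.83 (Trp73), the granulosa drug ratio of Trp53 was -0.52, the cell type ratios before the drug were -2.14 (Trp53), 6.66 (Trp63) and 0 (Trp73), and those after it 6.23 (Trp63) and 3.83 (Trp73). With the mean CPM of the cells they were 4.65 for Trp73 between oocytes, -0.32 for Trp53 between granulosa libraries, -1.89 (Trp53) and 3.03 (Trp63) between cell types before and -1.19 (Trp53) after the drug. With DESeq2 factors the cell type ratios of Trp53 were -1.88 and -1.21. With own markers above they were -2.10 (Trp53) and 2.54 (Trp63) before and -1.82 (Trp53) and 3.05 (Trp63) after. Under 200 CPM of granulosa markers the oocyte drug ratio of Trp53 was 0.17, also added after the data were seen. Leaving out 1 cell at a time kept every sign. The ranges for the oocyte drug ratios were 0.27 to 0.46 (Trp53), -0.15 to -0.040 (Trp63) and 4.42 to 5.97 (Trp73), and for the granulosa drug ratios -0.64 to -0.16 (Trp53) and -2.74 to -0.36 (Trp63). For the cell type ratios they were -2.03 to -1.82 (Trp53), 2.77 to 3.96 (Trp63) and 5.55 to 6.80 (Trp73) before the drug, and -1.38 to -0.90 (Trp53), 4.09 to 5.53 (Trp63) and 10.64 to 11.31 (Trp73) after it. The cause of these differences was not tested. Shared targets called higher were 12 of 21 in oocytes at 20 CPM, beside 245 of 7787 genes, and 20 of 30 at a limit of 0.5, beside 1530 of 11119. In granulosa libraries they were 18 of 26, beside 1527 of 8966, and 26 of 33, beside 3825 of 12194. Depth limits Trp73 in granulosa libraries, where 3 counts per group allow no drug ratio.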
